A study of Mus musculus with 8 samples.

Results

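The constitutive proteasome subunits were described in the total RNA of mouse myotubes, the multinucleate muscle fibres that form when myoblasts fuse in culture. Members were the genes whose symbol starts with Psma, Psmb, Psmc or Psmd followed by a digit, without the immunoproteasome subunits Psmb8, Psmb9 and Psmb10. The rule gave 37 of the 18193 genes that have a probe set annotated with 1 gene symbol. Of these 37 genes, 16 carry a Psma or Psmb symbol and belong to the core particle. Another 20 carry a Psmc or Psmd symbol and were counted as the regulatory particle. They include Psmd5, Psmd9 and Psmd10, which are assembly chaperones and not subunits of the finished particle. Psmc3ip, a recombination factor gene, only shares the prefix. For each gene the probe set with the brightest mean over the 4 RNAs was used, taken from the type A array where that array has the gene. The genes were picked by symbol and not by a difference between RNAs, though the set was proposed with earlier results of these data known.

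The series asks which genes the transcription factor Egr3 regulates in primary mouse myotubes. It holds 4 RNAs, and each RNA was hybridised to 1 type A array and 1 type B array, which carry largely different probe sets. One RNA is labelled truncated Egr3, one is labelled wildtype, RNA275 carries only a treatment named acclimatization, and RNA276 carries no condition. The labels do not say how the truncated protein was made or brought into the cells, whether wildtype refers to the protein or to the cells, from how many cultures or animals an RNA came, or the strain or age of the mice. Each label thus rests on 1 RNA, the difference has no replicate check, and no p-value was computed. RNA275 and RNA276 were put in no group and are given as single values.

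The proteasome is the protease that degrades proteins tagged with ubiquitin. Its barrel-shaped core particle is a stack of alpha rings (Psma genes) and beta rings (Psmb genes), of which Psmb5, Psmb6 and Psmb7 encode the catalytic subunits, and its regulatory particle binds, deubiquitinates, unfolds and feeds in the substrate. The base of the regulatory particle holds a ring of ATPases (Psmc genes), the lid is made of non-ATPase subunits (Psmd genes), and in skeletal muscle the complex carries out much of the protein breakdown of atrophy.

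All signals are the deposited intensities on a linear scale, and a difference is log2 of truncated Egr3 minus log2 of wildtype. A gene was counted as measured where it exceeded a floor in at least 1 labelled RNA, 67.6 on type A and 112.4 on type B, and 10307 genes were. In truncated Egr3 1.13% of these genes were lower by 2-fold or more and 0.534% were higher by as much. All 7 myotube markers (Myog, Ckm, Des, Acta1, Myh3, Tnnt3 and Myh8) were measured. Of 7 macrophage markers 2 were, and of 3 endothelial markers 1 was. Of 3 adipocyte markers 2 had a probe set and 0 were measured. Of 4 Schwann cell markers 2 had a probe set and 1, Sox10, was measured. By contrast 4 of 5 fibroblast markers and 2 of 4 smooth muscle markers were measured. The fibroblast markers summed to 7429 in truncated Egr3, 7996 in wildtype, 6914 in RNA275 and 8349 in RNA276. Among them Dcn differed by 1.02 and Col3a1 by 0.08, while Col1a2 differed by -0.19 and Col1a1 by -0.33. The smooth muscle genes Tagln and Acta2 differed by -0.83 and -0.27, while the 7 myotube markers lay between -0.35 and 0.12. The part of these cells in the results below was not tested. In RNA from whole cultures, fewer cells of a type and less RNA per cell cannot be told apart.

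The precision of a difference could be gauged from 100 probe sets that sit on both array types. Their differences on type A and type B were apart with an SD of 0.25 over probe sets, which is 0.17 for a single difference if both types carry equal error. The mean gap was -0.14, type A minus type B. The median difference of these probe sets was 0.01 on type A and 0.17 on type B. Type A gave the value of every measured member, and the median over all measured genes read on type A was -0.01. For those read on type B it was 0.03.

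Of the 37 members, 34 were measured, 14 in the core particle and all 20 in the regulatory particle. Those 34 were above the floor in each of the 4 RNAs, between 138.9 and 2139 in truncated Egr3 and between 141.8 and 2260.3 in wildtype. The probe sets used for the 3 others were below the floor in both labelled RNAs. Psma8, an alpha subunit of the testis, read 8.52 in truncated Egr3, 11.7 in wildtype, 2.50 in RNA275 and 6.65 in RNA276. Psmb11, the beta subunit of the thymus proteasome, read 37.2, 56.9, 79.4 and 120.9 in the same order, and Psmc3ip read 61.9, 57.1, 79.2 and 117.1. A second Psmc3ip probe set, on type B, was above the floor, with 119.8 in truncated Egr3, 198.6 in wildtype, 230.1 in RNA275 and 229.8 in RNA276, a difference of -0.73.

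More of the core than of the regulatory members read higher in both unlabelled RNAs, and the difference between the particles was not tested. In 13 of 14 core members both RNA275 and RNA276 read higher than either labelled RNA, against 6 of 20 regulatory members and 20.2% of all measured genes. Among the 986 type A genes at least as bright as the dimmest measured core member, the share was 29.3%. After quantile normalization the counts were 9 of 14 and 3 of 20, and with the arrays scaled to equal medians 14 of 14 and 12 of 20. With the second brightest probe set of each gene they were 5 of 9 and 2 of 8. Each member was also centred on its own mean over the 4 RNAs on the log2 scale, since levels of different probe sets cannot be set against each other. The core median stood at -0.28 in truncated Egr3, -0.10 in wildtype, 0.14 in RNA275 and 0.22 in RNA276. The regulatory median stood at -0.14, 0.07, 0.07 and 0.09 in the same RNAs. The core median was thus below the regulatory median by 0.14 in truncated Egr3 and by 0.16 in wildtype, and above it by 0.06 in RNA275 and 0.13 in RNA276.

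Core and regulatory members overlapped in each RNA. In truncated Egr3, 2 of 14 core members lay above the regulatory median, and 13 of 20 regulatory members lay above the core median. In wildtype, 1 of 14 core members lay above the regulatory median, and 17 of 20 regulatory members lay above the core median. In RNA276, 11 of 14 core members lay above the regulatory median, and in RNA275 10 of 14 did. These counts describe subunits and assembly chaperones of 1 complex measured in the same 4 RNAs and are no replicates of a condition.

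**Figure D1:**
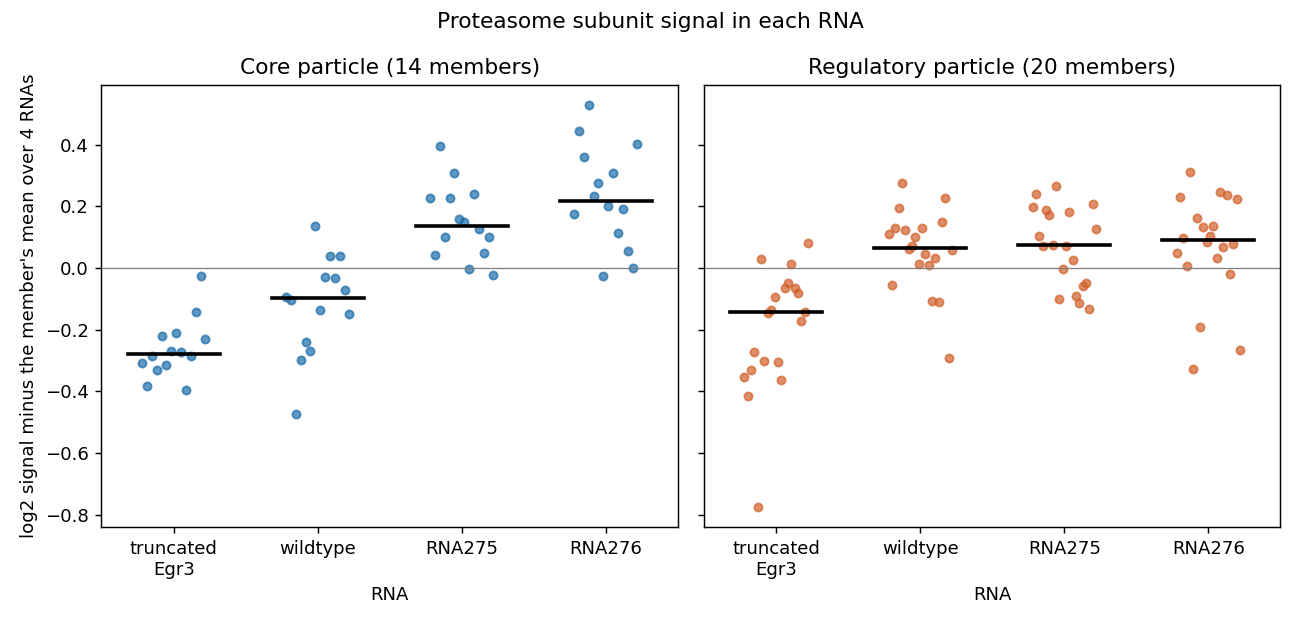
Log2 deviation of each measured proteasome member from its own mean over the 4 RNAs, by RNA, with core members (14) and regulatory members (20) side by side. Each point is 1 gene and the bar is the median of the set; the core median is -0.28 in truncated Egr3 and 0.22 in RNA276, while the regulatory median runs between -0.14 and 0.09.

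The order of the 4 RNAs depended on small steps for many members. Counting only steps larger than 0.17, 6 core members kept RNA275 and RNA276 above both labelled RNAs, namely Psma1, Psma3, Psma4, Psma5, Psma6 and Psmb1. In the regulatory particle 2 did, Psmc2 and Psmd8, and 8.9% of all measured genes did. The smallest core step was 0.01 for Psmb5 and the largest was 0.65 for Psma3. RNA275 and RNA276 carry no group, and whether their place comes from the cells, the treatment or the arrays was not tested.

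In the alpha ring, 5 of 7 members showed that order by more than 0.17. Psma3, a subunit of the outer ring, read 1012 in truncated Egr3 and 888 in wildtype, against 1624 in RNA275 and 1584 in RNA276. Psma6 read 920.1 in truncated Egr3 and 950.4 in wildtype, against 1418 in RNA275 and 1385 in RNA276. Psma4 read 1022 in truncated Egr3 and 1047 in wildtype, against 1381 in RNA275 and 1857 in RNA276. In these genes the labelled RNAs lay close together and the unlabelled RNAs apart from them. At least 1.5-fold above both labelled RNAs were 1 of 34 members in RNA275 (Psma3), beside 4.7% of all measured genes, and 2 of 34 in RNA276 (Psma3 and Psma4), beside 6.23%. In either RNA it was 2 of 34, beside 10.2% of all measured genes. Psma5 read 691 in truncated Egr3, 681 in wildtype, 941 in RNA275 and 945 in RNA276, and Psma1 read 468, 543, 679 and 654.

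The other alpha members differed more between the labelled RNAs. Psma2 read 1046 in truncated Egr3 and 1270.1 in wildtype, a difference of -0.28, with 1404 in RNA275 and 1856 in RNA276. Psma7 read 563.1 in truncated Egr3 and 746 in wildtype, a difference of -0.40, with 758 in RNA275 and 666 in RNA276. Psma7 was the core member in which RNA276 did not exceed both labelled RNAs. The alpha ring median of the difference was -0.05, with a range of -0.40 to 0.19.

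Second probe sets bear on the alpha genes unevenly. For Psma6, whose brightest probe set has a name that marks possible cross-hybridisation, the other measured one read 851 in truncated Egr3, 971 in wildtype, 1278 in RNA275 and 1315 in RNA276, the same order of unlabelled over labelled. For Psma1 the same probe set on type B read 2086 in truncated Egr3, 2433 in wildtype, 2949 in RNA275 and 2599 in RNA276, and the difference was -0.22 on both types. For Psma3, however, a dim type B probe set read 158 in truncated Egr3, 134.7 in wildtype, 138.1 in RNA275 and 45.2 in RNA276, without the order of the bright one. For Psma5 the other probe set read 563.0, 605, 607 and 752, so that RNA275 and wildtype were level.

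In the beta ring RNA275 and RNA276 exceeded both labelled RNAs in 7 of 7 members, but by more than 0.17 only in Psmb1. Psmb1 read 766 in truncated Egr3, 807 in wildtype, 984 in RNA275 and 1021 in RNA276. The catalytic subunits lay close in the labelled RNAs. Psmb5, which carries the chymotrypsin-like activity, read 1075 in truncated Egr3 and 1218 in wildtype, a difference of -0.18, with 1228 in RNA275 and 1233 in RNA276. The same Psmb5 probe set on type B read 4546 in truncated Egr3 and 4109 in wildtype, a difference of 0.15. This lay close to the median of the 100 shared probe sets on type B, 0.17, which was 0.01 on type A. Psmb6, with the caspase-like activity, read 1135 in truncated Egr3 and 1101 in wildtype, a difference of 0.04, with 1239 in RNA275 and 1157 in RNA276. Psmb7, with the trypsin-like activity, read 2139 in truncated Egr3 and 2260.3 in wildtype, a difference of -0.08, with 2469 in RNA275 and 3319 in RNA276. On type A the constitutive catalytic subunits differed by at most 1.13-fold between the labelled RNAs.

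Among the remaining beta subunits, Psmb3 had the lowest difference of the core particle. It read 783 in truncated Egr3 and 1058 in wildtype, a difference of -0.43, with 1217 in RNA275 and 1112 in RNA276, and its other measured probe set gave -0.34. Psmb4 read 1134 in truncated Egr3 and 1352 in wildtype, a difference of -0.25, with 1511 in RNA275 and 1579 in RNA276. Psmb2 read 628 in truncated Egr3 and 744 in wildtype, a difference of -0.24, with 757 in RNA275 and 939 in RNA276. For Psmb4 a second probe set, of a kind that can cross-hybridise, gave a difference of 0.01, with 706 in RNA275 and 497 in RNA276 against 363 in truncated Egr3 and 361 in wildtype. The beta ring median was -0.18, with a range of -0.43 to 0.04. Pseudogenes named after Psma5, Psmb5, Psmb6 and Psmb7 are annotated, and whether these probe sets also bind their transcripts was not tested.

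Between the labelled RNAs, 27 of 34 measured members read lower and 7 read higher in truncated Egr3, beside 49.9% lower and 50.1% higher among all measured genes. With equal medians 10 read higher, and the signs of Psma4, Psma5, Psma6 and Psmd4, all close to 0, depended on the scaling. The median difference was -0.13 in the core particle and -0.23 in the regulatory particle, with an SD over genes of 0.18 and 0.27. The core minus regulatory value was 0.10, or 0.23 without the assembly chaperones, and was not tested. The median over all measured genes was 0.00. For 40 measured cytosolic ribosomal proteins, members of another large complex, the median was -0.12 and 28 of 40 read lower. A median near that of the core particle was thus also found outside the proteasome. Of these 40 genes 1 read at least 1.5-fold higher, beside 4.7% of all measured genes. Of the 986 bright type A genes named above, 58.6% read lower in truncated Egr3, with a median of -0.06.

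No member read 1.5-fold or more higher in truncated Egr3, beside 4.7% of all measured genes, and 1 of 34, the ATPase gene Psmc5, read at least 1.5-fold lower, beside 4.59%. Psmc5 was also the 1 member at least 2-fold lower, beside 1.13%. The truncated Egr3 RNA gave the lowest of the 4 values in 24 of 34 members, 11 of 14 core and 13 of 20 regulatory, beside 22.7% of all measured genes and 36.2% of the bright ones. By more than 0.17 it was lowest in 15 of 34 members, 7 core and 8 regulatory, beside 10% of all measured genes. It was the highest of the 4 in 0 of 34 members, a count for which no share over all measured genes was computed. The wildtype RNA was highest in 5 members, all of the regulatory particle, beside 19.1% of all measured genes.

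**Figure D2:**
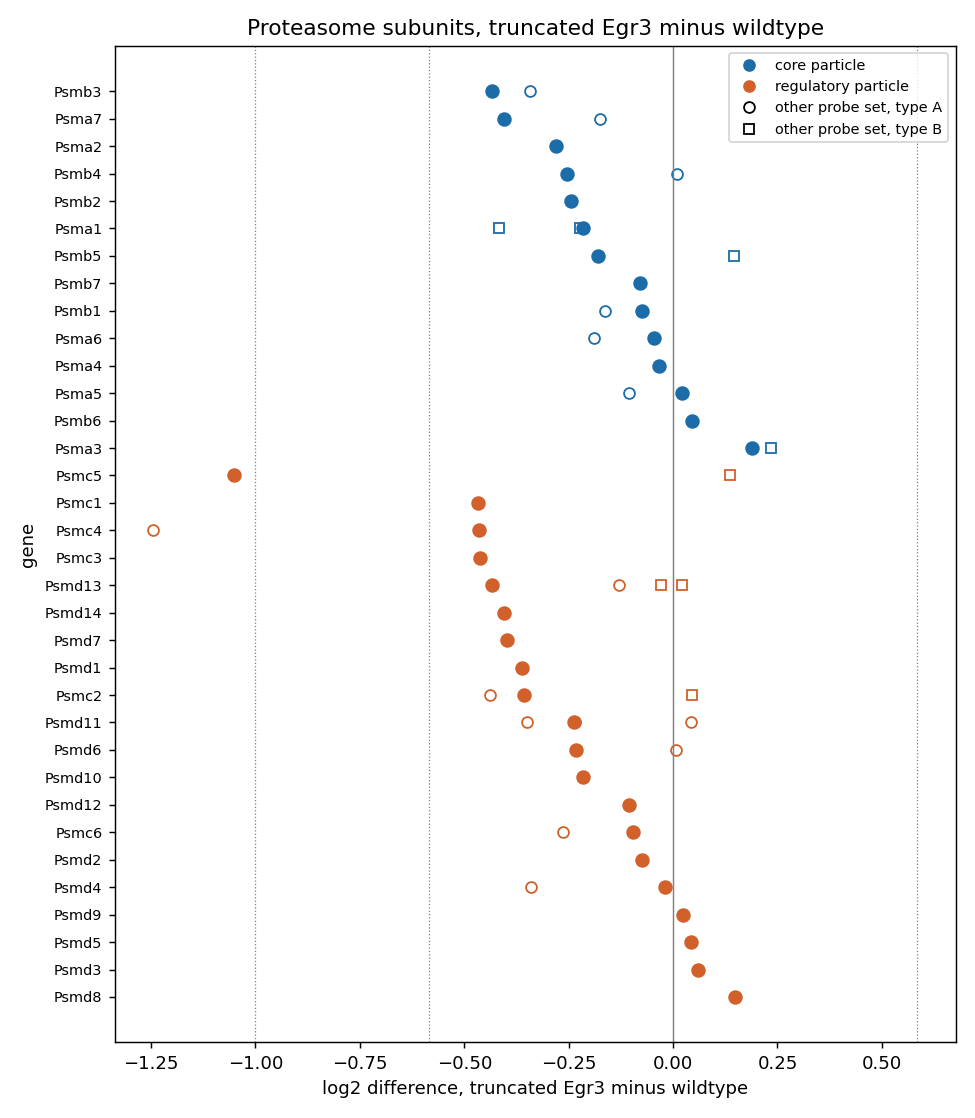
Log2 difference, truncated Egr3 minus wildtype, for the 34 measured members, core genes above and regulatory genes below, each sorted by difference. Filled points are the probe set used for the gene, and open circles and squares are its other measured probe sets on type A and type B. Dotted lines mark 1.5-fold and 2-fold. Of the filled points 27 lie left of 0 and only that of Psmc5 passes a dotted line. An open circle of Psmc4 lies at -1.24.

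The ATPases of the base had the lowest median difference of the roles, -0.46, and 6 of 6 read lower in truncated Egr3. In 5 of 6, truncated Egr3 was the lowest RNA by more than 0.17. Psmc5 read 619.7 in truncated Egr3, against 1284 in wildtype, 1209 in RNA275 and 1317 in RNA276, a difference of -1.05 or 2.07-fold. The same Psmc5 probe set on type B read 3552 in truncated Egr3, against 3230 in wildtype, 3871 in RNA275 and 5547 in RNA276. Its difference there was 0.14, near the median of the shared probe sets on type B, 0.17. The gap of -1.19 between the types was the largest in size of the 100 shared probe sets, and the next was 0.67. The low Psmc5 value on type A was thus not seen with the same probe set on the other array of the same RNA.

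**Figure D3:**
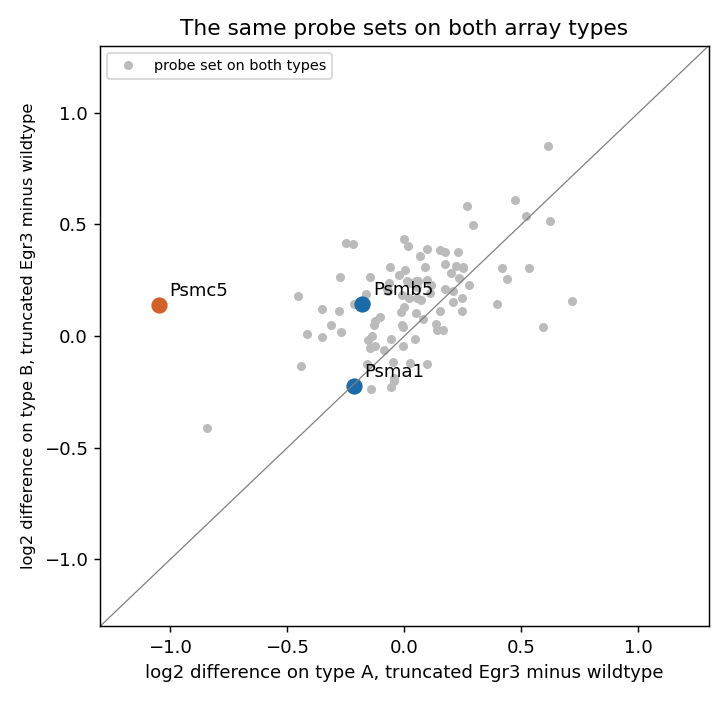
Log2 difference, truncated Egr3 minus wildtype, on type B (vertical axis) against type A (horizontal axis) for the 100 probe sets that both array types carry, with the proteasome probe sets of Psma1, Psmb5 and Psmc5 marked. Psma1 reads -0.22 on both types, Psmb5 reads -0.18 on A and 0.15 on B, and Psmc5 reads -1.05 on A and 0.14 on B, the farthest from the line of equal values. The median of the 100 probe sets is 0.01 on A and 0.17 on B.

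The other ATPases kept a negative difference without Psmc5. Psmc1 read 312 in truncated Egr3, against 432 in wildtype, 458 in RNA275 and 413 in RNA276, a difference of -0.47. Psmc3 read 980.1 in truncated Egr3, against 1351 in wildtype, 1325 in RNA275 and 1320.2 in RNA276, a difference of -0.46. Psmc4 read 489 in truncated Egr3, against 675 in wildtype, 621 in RNA275 and 593 in RNA276, a difference of -0.47. In these 3 genes the other 3 RNAs lay close together and truncated Egr3 stood below them. A second Psmc4 probe set read 133.7 in truncated Egr3, against 317 in wildtype, 236 in RNA275 and 260.1 in RNA276, a difference of -1.24.

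Psmc2 and Psmc6 departed from that order. Psmc2 read 870.2 in truncated Egr3 and 1115 in wildtype, a difference of -0.36, with 1369 in RNA275 and 1359 in RNA276, an order like that of the alpha subunits. Its other type A probe set gave -0.44, with 1031 in RNA275 and 1073 in RNA276 at the level of the 1072 in wildtype. Psmc6 read 874 in truncated Egr3 and 934 in wildtype, a difference of -0.10, with 966 in RNA275 and 683 in RNA276. Psmc6 was the ATPase gene for which RNA276 and not truncated Egr3 gave the lowest value.

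In the lid the median difference was -0.23 and the members spread from -0.43 to 0.15. Psmd14, the deubiquitinase of the lid, read 861 in truncated Egr3, against 1140.2 in wildtype, 1253 in RNA275 and 1216 in RNA276, a difference of -0.41. Psmd13 read 359 in truncated Egr3, against 484 in wildtype, 466 in RNA275 and 476 in RNA276, a difference of -0.43. Psmd14 and Psmd13 were the lid members in which truncated Egr3 was lowest by more than 0.17. For Psmd13, 3 other measured probe sets gave -0.13, -0.03 and 0.02, so its value rested on the brightest.

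For other lid genes the unlabelled RNAs took other places. Psmd7 read 389.9 in truncated Egr3 and 514 in wildtype, a difference of -0.40, with 399.8 in RNA275 and 463 in RNA276. Psmd11 read 1457 in truncated Egr3 and 1716 in wildtype, a difference of -0.24, with 1492 in RNA275 and 1756 in RNA276. Psmd6 read 929 in truncated Egr3 and 1092 in wildtype, a difference of -0.23, with 951 in RNA275 and 971 in RNA276. In these 3 genes RNA275 lay nearer to truncated Egr3 than to wildtype. A second Psmd6 probe set gave 0.01, and 3 further Psmd11 probe sets gave 0.04, -0.23 and -0.35.

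The remaining lid members differed little or read higher. Psmd12 read 769.9 in truncated Egr3 and 829 in wildtype, with 821 in RNA275 and 871 in RNA276. Psmd3 read 608 in truncated Egr3 and 583 in wildtype, with 591 in RNA275 and 745 in RNA276. Psmd8 read 772 in truncated Egr3 and 696 in wildtype, a difference of 0.15, with 984 in RNA275 and 995 in RNA276. Psmd8 had the highest difference of the regulatory particle and was the lid gene with both unlabelled RNAs above the labelled ones by more than 0.17.

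The non-ATPase subunits of the base had a median difference of -0.07. Psmd1, a large scaffold subunit, read 572 in truncated Egr3 and 736 in wildtype, a difference of -0.36, with 743 in RNA275 and 790.0 in RNA276. Psmd2, the other large scaffold subunit, read 974 in truncated Egr3 and 1025 in wildtype, with 1036 in RNA275 and 1042 in RNA276. Psmd4, a ubiquitin receptor, read 804 in truncated Egr3 and 814 in wildtype, with 736 in RNA275 and 835 in RNA276. Only Psmd1 of the 3 was apart by more than 0.17, and for Psmd4 a second probe set gave -0.34.

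Psmd5, Psmd9 and Psmd10 are chaperones that help assemble the base and leave the finished complex. Their median difference was 0.02. Psmd5 read 269 in truncated Egr3 and 261 in wildtype, Psmd9 read 144.2 and 141.8, and Psmd10 read 138.9 and 161.3 in the same order. Psmd9 and Psmd10 were the dimmest measured members. RNA276 held the lowest value for both, 113.1 for Psmd9 and 134.4 for Psmd10, while for Psmd5 it held the highest, 331. Without these 3 genes the regulatory median was -0.36 and the core minus regulatory value was 0.23.

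Over the 34 measured members, 17 genes had at least 1 further measured probe set, 23 in all. Their difference had the sign of the probe set used in 15 of 23 cases, and the 2 were apart with an SD of 0.37 over probe sets. The order with both unlabelled RNAs above both labelled ones was found in 5 of 10 further core probe sets and in 4 of 13 further regulatory ones. Of the 100 shared probe sets 26% showed that order on type A and 50% on type B, so its background depends on the array type.

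The immunoproteasome subunits, which replace catalytic beta subunits when interferon acts on a cell, stood apart from the constitutive ones. Psmb8, which takes the place of Psmb5, read 80.7 in truncated Egr3, against 222 in wildtype, 213 in RNA275 and 747 in RNA276, a difference of -1.46. Psmb10, which takes the place of Psmb7, read 207 in truncated Egr3, against 464 in wildtype, 402 in RNA275 and 1074 in RNA276, a difference of -1.16. Psmb9 was below the floor in both labelled RNAs and read 73.3 in RNA275 and 321 in RNA276. The partners Psmb5 and Psmb7 differed by -0.18 (0.15 on type B) and -0.08, and in these 2 pairs the inducible gene had the larger difference. Psme1, a subunit of the PA28 activator, read 360.0 in truncated Egr3, against 516 in wildtype, 519 in RNA275 and 1084 in RNA276, a difference of -0.52. All 3 measured genes of this list read lower in truncated Egr3, beside 49.9% of all measured genes. The Psmb8 value of 80.7 there was near the floor of 67.6. All 3 also read highest in RNA276, for which no share over all measured genes was computed. The list was drawn up with earlier results of these data known.

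Other proteasome regulators showed no common direction. The activators Psme3 and Psme4 and the inhibitor Psmf1 all read higher in truncated Egr3, at 0.22, 0.51 and 0.19, with 0 of 3 past 1.5-fold. A second Psme3 probe set had the opposite sign, -0.40, with 191 in truncated Egr3 and 252 in wildtype. Psme4 read 829.5 in truncated Egr3 and 584 in wildtype, with 848 in RNA275 and 444 in RNA276, and its other measured probe sets gave 0.49 and -0.27. Of 5 measured associated subunits and enzymes 4 read lower, with a median of -0.32 and 0 past 1.5-fold, the lowest being Psmd14 above and Uchl5, a deubiquitinase, at -0.33. That median is the value of Usp14, another deubiquitinase, for which 3 other measured probe sets gave 0.29, -0.27 and 0.05. Sem1, a small lid subunit, was the 1 that read higher, at 0.22, and its second probe set gave -0.16. Of 8 measured assembly factors 4 read higher and 4 lower, with a median of 0.00. The 2 largest in size were Psmg2 at 0.41 and Psmg3 at 0.31, both chaperones of the alpha ring, and other Psmg2 probe sets gave -0.17 and -0.09. The median over 7 measured ubiquitin shuttles and unfoldase subunits was 0.11, with 0 past 1.5-fold, and the 2 largest in size were Nploc4 at -0.19 and Ufd1 at 0.13. Of the genes for ubiquitin and its activation only Uba6, an activating enzyme, was measured, at 0.02.

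Nfe2l1 is a transcription factor that drives proteasome genes when the proteasome is inhibited, and Nfe2l2 its relative of the antioxidant response. Nfe2l2 read 506.5 in truncated Egr3 and 281 in wildtype, a difference of 0.85, with 492 in RNA275 and 504.5 in RNA276. Wildtype was the low RNA and the other 3 lay close together. Nfe2l1 read 831 in truncated Egr3 and 579 in wildtype, a difference of 0.52, with 649 in RNA275 and 705 in RNA276. Over the 6 measured genes of this list the median was 0.11, and 4 read higher and 2 lower, beside 50.1% higher among all measured genes. Only Nfe2l2 passed 1.5-fold, beside 4.7% of all measured genes higher and 4.59% lower by as much. In the same contrast 27 of 34 proteasome members read lower, as given above.

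**Figure D4:**
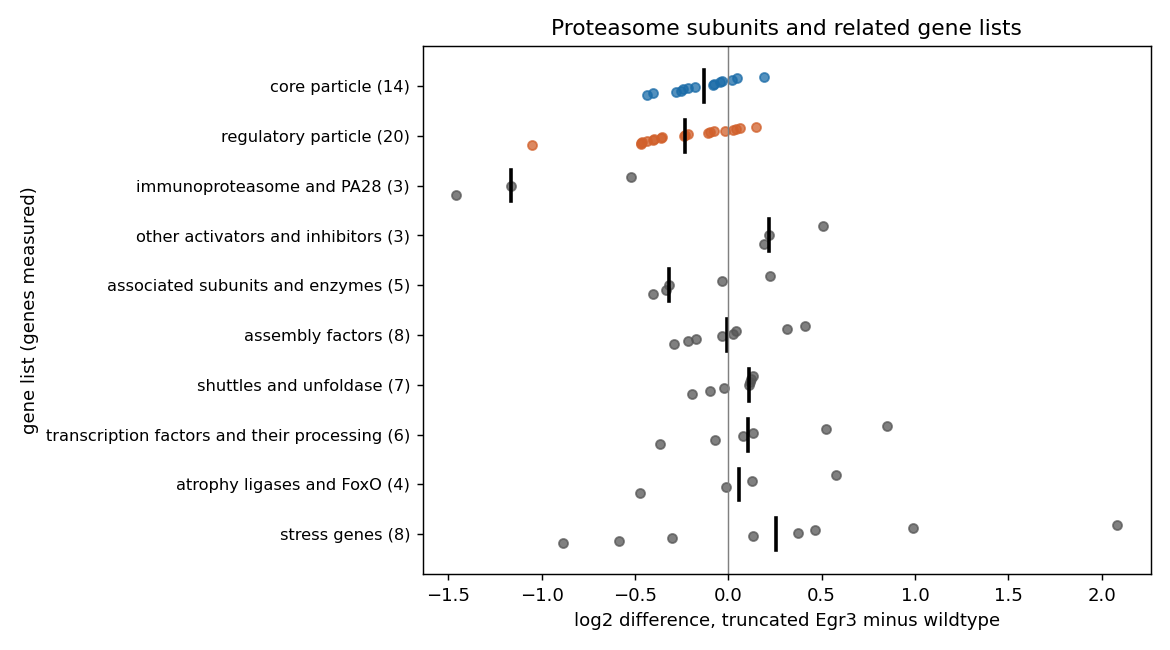
Log2 difference, truncated Egr3 minus wildtype, for the measured genes of the proteasome particles and of the other lists, 1 point per gene, with the bar at the median of the list. The immunoproteasome and PA28 genes have a median of -1.16, the core particle -0.13 and the regulatory particle -0.23.

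Promoter letters were compared between the particles, since they are a feature that the choice of genes did not use. RefSeq promoters of the GRCm38.p6 assembly ran from 250 bases before to 50 after the start of the gene. They were matched by Entrez gene identifier for 28 of the 34 measured members, 30 promoters in all. Psmb1, Psmb2, Psmb7, Psmc3, Psmd3 and Psmd7 had none in the table. The Ets-type motif CCGGAAG, searched on both strands, was found for 9 of 17 regulatory genes and for 1 of 11 core genes, Psma6. It was found in 8.86% of all 32851 promoters of the table and in 11.6% of 21262 protein-coding ones. The 6 regulatory genes below are shown because they carry the motif, each as 61 bases upstream of the start, 5′ to 3′ on the strand of the gene. Capitals mark the motif, which reads CTTCCGG where it lies on the opposite strand.
Psmc1: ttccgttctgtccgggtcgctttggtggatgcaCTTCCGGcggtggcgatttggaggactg
Psmc6: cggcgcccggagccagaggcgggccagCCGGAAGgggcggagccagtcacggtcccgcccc
Psmd4: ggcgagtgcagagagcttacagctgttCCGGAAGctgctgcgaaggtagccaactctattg
Psmd6: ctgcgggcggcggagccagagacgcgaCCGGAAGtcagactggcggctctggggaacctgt
Psmd11: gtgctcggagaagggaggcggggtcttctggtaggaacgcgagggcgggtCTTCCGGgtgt
Psmd12: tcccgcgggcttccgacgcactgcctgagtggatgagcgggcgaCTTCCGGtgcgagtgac

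These stretches lie at chr12:100110141-100110201 on the plus strand for Psmc1, chr14:45329697-45329757 on the plus strand for Psmc6, chr3:95042706-95042766 on the minus strand for Psmd4 and chr14:14120957-14121017 on the minus strand for Psmd6. Those of Psmd11 and Psmd12 lie at chr11:80428554-80428614 and chr11:107479467-107479527, both on the plus strand. Counting -1 as the base just before the start of the gene, the first base of the motif was at -28 in Psmc1, -100 in Psmc6, -125 in Psmd4, -45 in Psmd6, -11 in Psmd11 and -17 in Psmd12. The 9 regulatory genes with the motif had a median difference of -0.23, with a range of -0.47 to -0.02. The 8 without it had a median of -0.29, with a range of -1.05, the type A value of Psmc5, to 0.15. Whether the motif goes with the difference was not tested. A match describes letters and is not evidence of binding.

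The CCAAT letters and the antioxidant-response core TGACNNNGC, in which N is any base, were searched on both strands in the same promoters. CCAAT was found in 11 of 30 member promoters, 6 of 12 core and 5 of 18 regulatory, beside 37.4% of all promoters. TGACNNNGC was found in 5 of 30, for Psmb5, Psmb6, Psmc6, Psmd9 and Psmd12, beside 12.4% of all promoters. Neither share was far from that of the table. By gene, TGACNNNGC was found for 2 of 11 core and 3 of 17 regulatory genes. Core genes are shown as examples of CCAAT (Psma2 and Psmb3) and of TGACNNNGC (Psmb5).
Psma2: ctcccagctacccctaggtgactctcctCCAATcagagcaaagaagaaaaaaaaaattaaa
Psmb3: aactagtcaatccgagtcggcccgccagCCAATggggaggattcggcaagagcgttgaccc
Psmb5: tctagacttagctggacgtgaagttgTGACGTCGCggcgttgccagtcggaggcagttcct

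They lie at chr13:14613160-14613220 on the plus strand for Psma2, chr11:97703363-97703423 on the plus strand for Psmb3 and chr14:54618008-54618068 on the minus strand for Psmb5. The first base of the capitals was at -54 in Psma2, -43 in Psmb3 and -47 in Psmb5.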

How the data were processed

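Total RNA of 4 myotube RNAs was measured on 8 one-colour arrays of 2 types, and the number of arrays limits the precision. The deposited intensities are linear values scaled by the authors to a trimmed mean of 150.0 on every array, as the values show; the scanner software is not given in the sources used here. Per GEO's platform annotation, 20393 of 22690 type A probe sets name 1 gene, 691 several and 1606 none; on type B 14674, 245 and 7656 of 22575 do. Signals below a floor, the 50th percentile on type A (67.6) and the 60th on type B (112.4), were raised to it, and log2 was taken from the deposited signals. The 2 arrays of an RNA are not replicates. Groups came from the titles and descriptions; RNA275 and RNA276 entered no comparison between groups. Members, gene lists and the thresholds were chosen with earlier results of these data known. The text names every measured member. From each other list, except the cell markers and the ribosomal proteins, it names the genes past 1.5-fold. Where none was, it names the 2 largest in size, and other genes were chosen after their values were seen. Alternatives were equal medians, quantile normalization, loess, other floors, other probe sets and subsets of genes. Counting was tested on simulated data. Tables were handled with pandas 2.3.3 and numpy 2.4.6 in Python 3.11.15, loess came from statsmodels 0.14.6, and figures were drawn with matplotlib 3.10.9.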

Additional observations from a re-analysis of the deposited data

Results flagged for a closer look

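RNA275 and RNA276 carry no group label, so their signals stand outside the comparison of truncated Egr3 with wildtype. In 2 core genes the signal of such an RNA exceeded both labelled RNAs by at least 1.5-fold, which is 2 of the 34 measured members beside 10.2% of all measured genes. Psma3 was above the higher labelled RNA by 0.68 on the log2 scale in RNA275 and by 0.65 in RNA276, and Psma4 by 0.83 in RNA276. A dim type B probe set of Psma3 did not show this, as given above. These are single values, and the difference was not tested.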

How the results depend on the processing

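No median difference changed its sign under any alternative run. The count of members reading higher in truncated Egr3, 7 of 34, ran from 5 to 10 over 12 alternatives. Some had fewer members, such as 6 of 18 with the second brightest probe sets. Without probe sets whose names end in _x_at, _s_at or _a_at the count was 8 of 27. Scaling the arrays to equal medians moved the median of all genes to 0.09, the core median difference to -0.067 and the regulatory one to -0.17, and left 0 members past 2-fold. Under it, 12 of 20 regulatory members had both unlabelled RNAs highest, beside 28.6% of all genes; quantile normalization gave 3 of 20. The signs of Psma4, Psma5, Psma6 and Psmd4 were not the same under every scaling. Without a floor the core median was -0.20, the core minus regulatory value 0.036, and 2 members passed 1.5-fold. Without the _x_at, _s_at and _a_at probe sets the core median was -0.20 and the core minus regulatory value 0.029. With them left out, 8 of 12 core members had both unlabelled RNAs highest. The second brightest probe sets gave 5 of 9 core and 2 of 8 regulatory members with that order, a core minus regulatory value of 0.033, and 2 members past 1.5-fold. The median over probe sets gave 2 members past 1.5-fold and 0 past 2-fold. Leaving out the tissue-restricted subunits and chaperones gave a regulatory median of -0.36 and a core minus regulatory value of 0.23. Chosen after seeing the data were the counts over 4 RNAs, leaving out Psmc5, and the type B values of Psma1, Psmb5 and Psmc5. Both of these last gave 0 members past 1.5-fold and 0 past 2-fold, since Psmc5 was the 1 member past either. The type B values gave a core median of -0.077, while the median of the shared probe sets was 0.17 on type B and 0.01 on type A. Where no construction shows it, the cause was not tested. Loess gives no values for 4 RNAs, and the median over probe sets was not run for those counts. No paired analysis was possible because each label has 1 RNA.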

Other observations

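Genes of muscle atrophy and of protein stress were measured in the same RNAs. Over 4 atrophy ligases and FoxO factors the median difference was 0.06, with 0 past 1.5-fold. Foxo3, a transcription factor that drives atrophy genes, read 303.9 in truncated Egr3, against 203.9 in wildtype, 174.0 in RNA275 and 103.6 in RNA276, a difference of 0.58. Fbxo32, the atrogin ligase, read 100.4 in truncated Egr3 and 139.2 in wildtype, with 101.3 in RNA275 and 23.7 in RNA276, a difference of -0.47, while 2 other Fbxo32 probe sets gave -0.04 and -0.06. Of 8 stress genes 2 were higher in truncated Egr3 by 1.5-fold or more, beside 4.7% of all measured genes. As many, 2, were lower by 1.5-fold or more, beside 4.59%, and the median was 0.25. These counts rest on the brightest probe sets. Further probe sets gave 0.62 and 0.49 for Hspa5 and 0.62 for Atf4, against 0.13 and 0.46 for those used. For Dnajb1 and Hsph1 the further probe sets gave 0.06 and -0.35, against 0.38 and -0.30. Ddit3, a factor of the unfolded protein response, read 546.0 in truncated Egr3, against 128.7 in wildtype, 222 in RNA275 and 332 in RNA276, a difference of 2.08. A type B Ddit3 probe set, below the floor in wildtype, gave 1.21 against the floor. Dnajb9, a chaperone of the endoplasmic reticulum, read 699 in truncated Egr3 and 351 in wildtype, a difference of 0.99. The heat shock gene Hspa1b read 229.6 in truncated Egr3 and 424 in wildtype, a difference of -0.88. The name of that probe set marks possible cross-hybridisation, and 2 other Hspa1b probe sets gave -0.49 and -0.62. Hspa1a was below the floor in truncated Egr3, at 67.2, and read 101.6 in wildtype, 166 in RNA275 and 145.9 in RNA276, a difference of -0.59 against the floor.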
